A study of Mus musculus with 1 sample.

Results

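The nuclear genes of the respiratory chain and ATP synthase were examined in a mouse lung cancer cell line, on the only array of the series analysed here. Genes were taken by symbol from the probe sets that name 1 gene in the platform's annotation: those beginning with Nduf (complex I), Sdha to Sdhd (complex II), Uqcr (complex III), Cox4 to Cox8 (complex IV) or Atp5 (complex V), and Cyc1 (complex III). This gave 95 genes with 186 probe sets, among 18193 genes with 34945 probe sets on the array. Ndufa4 and Ndufa4l2 were counted with complex IV rather than complex I. The cells were derived from a KR tumor of the B6/J strain and carry the title KR Primary; the series title speaks of kras tumors, and the labels do not spell out KR. They were grown with 10% FBS and harvested at 80 to 90% confluency, and 150 ng of total RNA was labelled for an Affymetrix array. There is 1 sample of 1 group, so no value below has a replicate error and no test between conditions was possible. A cultured line is a limited model of a tumor, as it lacks the host's tissue. All 6 epithelial markers examined read between 3219 (Epcam) and 7600.2 (Krt18) on their highest probe sets, whereas the fibroblast collagen gene Col1a1 read at most 10.4 and the leukocyte gene Ptprc at most 11.5. Markers of lung epithelium, looked up after the data were seen, were low. Nkx2-1, its lineage factor, read 7.66, the club cell gene Scgb1a1 1.38, and the surfactant gene Sftpc 21.1 and 5.49.

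Oxidative phosphorylation takes place in the inner mitochondrial membrane. Complexes I and II pass electrons from NADH and succinate to ubiquinone, complex III passes them on to cytochrome c and complex IV to oxygen, while complexes I, III and IV pump protons that drive ATP synthesis by complex V. Most subunits are encoded in the nucleus, others in mitochondrial DNA, and complex IV in particular has subunits with a common and a tissue-restricted isoform, the latter used in heart and skeletal muscle, testis or lung.

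Each signal is the deposited intensity of a probe set in arbitrary units, and a gene's level is that of its highest probe set. A background was set on the same array from 126 probe sets of smell, taste and hair follicle genes, whose median was 6.41. Their 95th percentile, 16.8, is called the background line, and the highest of them, 60.6, the upper limit; the next highest background signals were 42.2 and 21.0. Of the markers of other cell types, 1 of 5 fibroblast, 1 of 5 leukocyte and 2 of 3 endothelial genes passed the line, and among these genes only Cd68, of leukocytes, exceeded the upper limit, at 69.8. Of the muscle markers, which are described with the muscle isoforms, Tnnt2 exceeded it, at 1561. The brightness of a probe set depends on its probes as well as on the RNA, so each gene is judged against the background, and a higher signal of 1 gene than of another does not mean more RNA.

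Nearly all genes of the 5 complexes gave signal. Of the 95 genes, 89 (93.7%) were above the line, against 63.3% of all measured genes, and 86 (90.5%) exceeded the upper limit, against 47.5%. Their median level was 1458, against 48.3 over all measured genes, and 59 of them (62.1%) read over 1000, which 7.99% of all genes did. The number of probe sets per gene bears on such counts, because a gene passes if any of its probe sets does. Among the 42 genes of the 5 complexes with only 1 probe set, 37 (88.1%) were above the line, against 48.4% of all genes with 1 probe set. Counted by probe set, 169 of 186 (90.9%) passed the line, against 60.9% of all one-gene probe sets, and 149 (80.1%) exceeded the upper limit, against 41.1%. These are transcript signals and do not measure respiration.

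**Figure D1:**
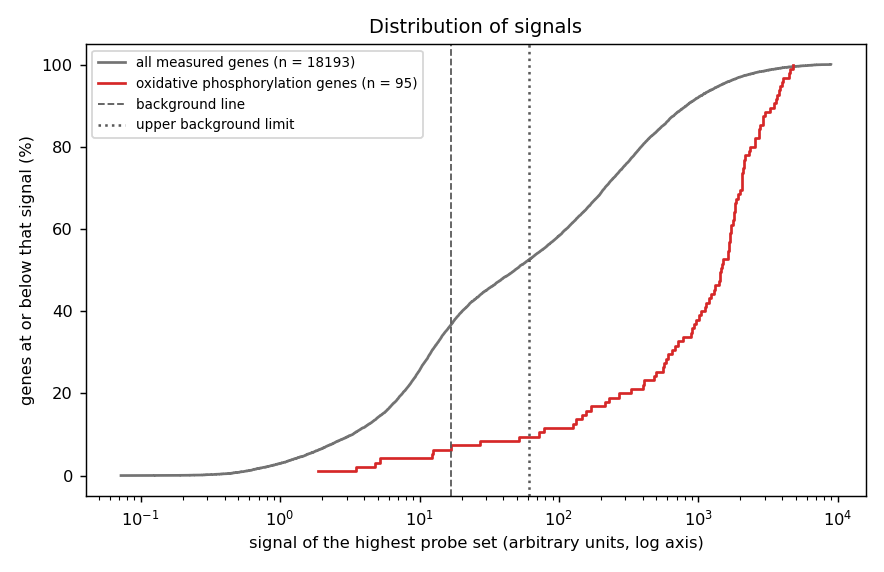
Cumulative share of genes (vertical axis, percent) at or below each signal of the highest probe set (horizontal log axis, arbitrary units), for the 95 oxidative phosphorylation genes and all 18193 measured genes; dashed and dotted vertical lines mark the background line (16.8) and the upper limit (60.6). The curve of the oxidative phosphorylation genes stays low up to about the upper limit, below which 9 of them lie, and has its median at 1458, whereas the curve of all genes has its median at 48.3.

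The genes under the upper limit numbered 9. All 8 tissue-restricted isoforms measured were among them, and the other was Ndufb4, an accessory subunit of complex I. Without those isoforms, 74 of 75 subunits (98.7%) were above the upper limit.

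**Figure D2:**
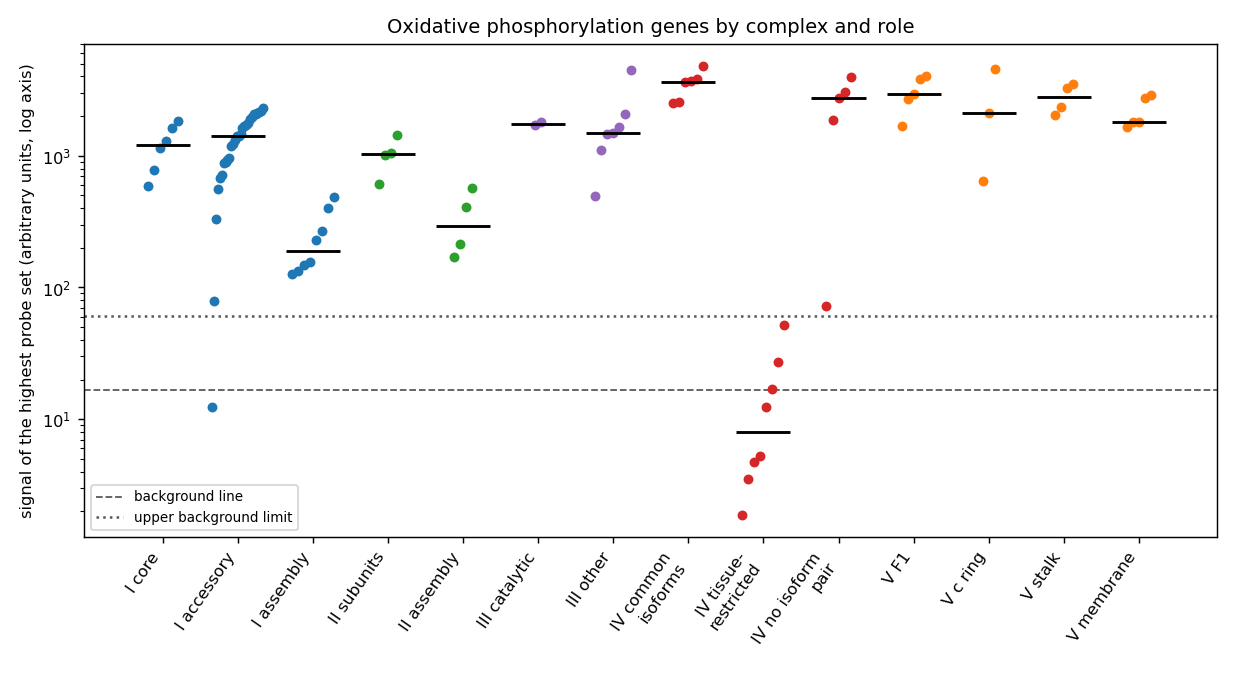
Signal of the highest probe set of each gene (vertical log axis, arbitrary units), grouped by complex and role; each point is a gene, black bars are group medians, and dashed and dotted lines mark the background line (16.8) and the upper limit (60.6). The tissue-restricted isoforms of complex IV lie between 1.88 and 52.1, and the only other gene under the upper limit is Ndufb4 at 12.3; the group of complex IV genes without an isoform pair includes the supercomplex factor Cox7a2l.

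Complex I, the NADH dehydrogenase, was measured by 42 genes, of which 41 passed both thresholds, and its median level was 1162. The 6 core subunits measured, which carry the flavin and iron-sulfur clusters or line the path of electrons to ubiquinone, read from 589.7 to 1837, and all 16 of their probe sets were above the upper limit. Ndufs1, the largest subunit, gave 589.7 on its only probe set, and Ndufs3 gave 1635. The pair of Ndufs7 probe sets read 756 and 773, a difference of 0.03 on the log2 scale. Ndufv1, the flavin-binding subunit, read from 954 to 1139 and its partner Ndufv2 from 994 to 1286, each on 3 probe sets. The 6 probe sets of Ndufs8 were more spread, from 83.5 to 1837. Among the 4 core genes with several probe sets, those of Ndufs8 were the only ones that differed by more than 4 on the log2 scale.

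The 28 accessory subunits, which surround and stabilise the core, had a median of 1418, and 27 exceeded the upper limit. The highest were Ndufa3 at 2312, Ndufb9 at 2174 and Ndufc2 at 2138. Their lowest probe sets read 27.4, 2.88 and 12.9. Ndufab1, which is also the mitochondrial acyl carrier protein of fatty acid synthesis, read 1686, 375, 52.8, 27.8 and 17.0 on its 5 probe sets. The lowest were Ndufb4 at 12.3 and Ndufb1 at 78.5, each on a single probe set. The next lowest subunits were Ndufs5 at 329 and Ndufs4 at 561. A pair of probe sets that name Ndufb4 together with its copies Ndufb4b and Ndufb4c read 1574 and 1189.8, and these cannot be assigned to 1 of the 3 genes.

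Accessory subunits of both arms of the L-shaped enzyme were detected. Of those at the matrix arm, Ndufa2 gave 1972, Ndufa9, which lies near the ubiquinone site, 1421, Ndufa6 929.7 and Ndufv3 958, each on 1 probe set. Ndufa5 gave 714 and 459.9, and Ndufa7 read from 452 to 2067 on 5 probe sets. Ndufa12 gave 2066, 1959, 1031 and 32.3. In the membrane arm, Ndufa1, a small subunit needed for assembly, gave 2098, Ndufa8 1416, and Ndufa13, also known as GRIM-19 and linked to cell death signalling, 1781. These were again single probe sets, all far over the upper limit. That of Ndufa13 has a name ending in _s_at, and a pair of probe sets naming Ndufa13 together with Yjefn3 read 10.5 and 4.77.

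The Ndufb subunits, of the membrane arm, were detected as well, apart from Ndufb4. Ndufb3 gave 882 and Ndufb10 683 on 1 probe set each. Ndufb5 gave 1325 and 1045, Ndufb6 1468 and 1228, Ndufb7 1225 and 631, and Ndufb11, which is encoded on the X chromosome, 1619, 1499.9 and 890.1. Every probe set of these 6 genes exceeded the upper limit. Like Ndufb9, whose lowest probe set read 2.88, Ndufb2 and Ndufb8 each had 1 probe set under it, with 1185, 864 and 29.5 for Ndufb2 and 1703 and 51.7 for Ndufb8. Ndufc1, which pairs with Ndufc2, gave 1914 and 993.

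Assembly factors build complex I without being part of the finished enzyme. All 8 measured Ndufaf genes were above the upper limit, with a median of 189 and a range from 127 (Ndufaf2) to 483 (Ndufaf8). Ndufaf1, of an early assembly complex, gave 401, Ndufaf4 270.1 and 171, and Ndufaf3, its partner, 228. Ndufaf5, Ndufaf6 and Ndufaf7 gave 133, 147 and 157. None of the 8 read over 1000, but only 7.99% of all measured genes did, so 8 genes show no contrast with the array. Of the 34 complex I subunits, 22 read over 1000. They are read by other probe sets, so this difference in signal does not mean more RNA. All 10 probe sets of these factors were above the upper limit. Only Ndufaf4 and Ndufaf8 had more than 1, so the calls of the other 6 rest on 1 probe set each, and that of Ndufaf7 has a name ending in _s_at.

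Complex II, succinate dehydrogenase, links the citric acid cycle to the chain and is encoded entirely in the nucleus. All 4 subunits were above the upper limit, with a median of 1026. Sdhb, the iron-sulfur subunit, gave 1434 on its only probe set. Sdha, the flavin-containing catalytic subunit, read 1046, 589.6, 28.8 and 0.615 on its 4 probe sets, a span of 10.73 on the log2 scale. The membrane anchors Sdhc and Sdhd read 609.7 and 404, and 1007 and 201, on their pairs of probe sets. The 4 assembly factors were above the upper limit as well, from Sdhaf1, needed for the iron-sulfur subunit, at 171 to Sdhaf2, which helps to attach flavin to Sdha, at 570.2. Sdhaf4, also a factor for Sdha, gave 408, and Sdhaf3 passed on 1 of its 2 probe sets, at 213 and 3.87.

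All 9 measured genes of complex III, which oxidises ubiquinol and reduces cytochrome c, were above the upper limit, with a median of 1645. The catalytic subunits encoded in the nucleus were Cyc1, cytochrome c1, at 1809, and Uqcrfs1, the Rieske iron-sulfur protein, at 1704, each on 1 probe set. Among the other subunits, the core proteins Uqcrc1 and Uqcrc2 gave 1458 and 1494, and the second Uqcrc2 probe set gave 1428. Uqcrb, a small subunit close to the quinone site, gave the highest signal of this complex, 4479, but its other probe set read 1063. Uqcrh, the acidic hinge protein, gave 2067 and 1654, and Uqcr11 gave 1645. The lowest member was Uqcr10, with 495, 309 and 294 on 3 probe sets. Uqcrq read 1109 on 1 probe set and 21.1, 14.0 and 7.66 on the other 3, so its median over probe sets, 17.2, was just above the line.

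Complex IV, cytochrome c oxidase, was measured by 19 genes, of which 14 passed the line and 11 exceeded the upper limit. These 11 were all of the measured genes other than the tissue-restricted isoforms, with a median of 3026, and 10 of them read over 1000. Cox5a, a matrix-side subunit without an isoform pair here, gave 3987, 3069 and 2925, and Cox6c gave 2757 and 1609. Cox5b, a zinc-binding subunit, read 3026, 2961, 1799, 1391, 34.7 and 20.4, so that 4 of its 6 probe sets were above the upper limit. Cox7a2l, which joins complexes III and IV into supercomplexes, gave 1857, 1694 and 1380.4. The exception in level was Cox7c, with 72.0 and 35.5 on its pair of probe sets, only 1 of which passed the upper limit.

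The common isoforms of complex IV were all detected and the tissue-restricted ones were at or near background. All 6 measured common isoforms were above the upper limit and read over 1000, from Cox8a at 2533 to Cox6a1 at 4767. Of the 8 tissue-restricted isoforms, 3 (37.5%) passed the line, 0 exceeded the upper limit, and the median was 8.06. Over all measured genes, 63.3% passed the line and 47.5% exceeded the upper limit, and of those with 1 probe set 48.4% passed the line. The levels of the common and the restricted isoforms did not overlap, the highest restricted isoform reading 52.1. Because the members of a pair are read by different probe sets, the statement is about each gene against the background and no ratio between them is given.

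The muscle isoforms were low. Cox6a1, the common form of subunit VIa, gave 4767 and 2202, whereas Cox6a2, its muscle form, gave 12.4 and 3.65, both under the line. Cox7a2 gave 3819 and 1940.4, and its muscle counterpart Cox7a1 gave 16.9 on its only probe set, just over the line of 16.8 and under 20.8, the line that keratin-associated genes alone would set. Cox8a gave 2533, 2377 and 17.5, and Cox8b, a form of muscle and brown fat, 3.49. Of 8 muscle markers, 3 passed the line and only Tnnt2, a cardiac troponin gene, exceeded the upper limit, at 1561, 1342 and 17.3. The myosin genes Myh6, Myh7 and Myh1 read at most 4.65, 20.2 and 5.41, and the muscle creatine kinase gene Ckm 22.3. The brown fat gene Ucp1 gave 1.37. The part of such cells in the isoform signals was not tested.

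Isoforms of testis were Cox6b2 at 5.24, Cox7b2 at 1.88 and Cox8c at 52.1 and 40.2. The common form of subunit VIb, Cox6b1, gave 3668 and 1967. Cox8c, the highest of the restricted isoforms, passed the line but not the upper limit on both of its probe sets, and 1 background probe set at 42.2 lies in the same range. None of 6 testis germ cell markers was above the line, the highest being Odf1 at 11.3. Testis forms outside complex IV were also under the line: testis cytochrome c, Cyct, gave 7.15 while the somatic Cycs gave 3514, 2410.3, 983 and 8.00, and the germ cell ADP/ATP carrier gene Slc25a31 gave 4.26.

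Cox4i2, an isoform of subunit IV that is known from lung and responds to oxygen, gave 27.2, over the line and under the upper limit, whereas the common Cox4i1 gave 3605. Ndufa4, first counted with complex I and now placed in complex IV, gave 2554, and its hypoxia-induced paralog Ndufa4l2 gave 4.76. Both restricted genes are known from pericytes and smooth muscle of vessels, and the markers Rgs5, Myh11, Cspg4 and Acta2 of those cells read at most 9.81, 7.49, 23.2 and 25.1, so that 2 of the 4 passed the line and 0 the upper limit.

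**Figure D3:**
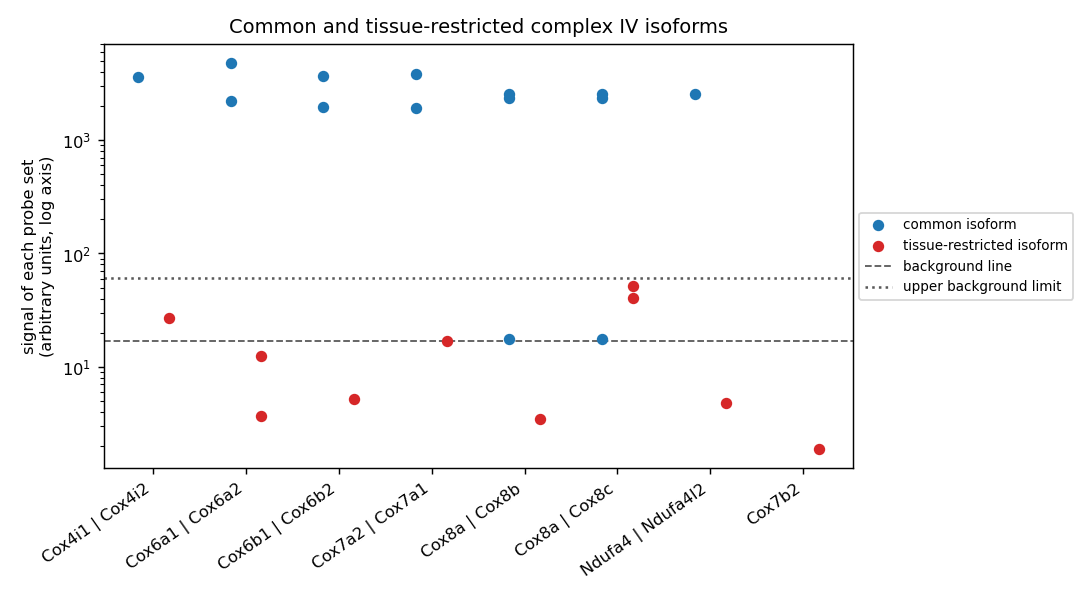
Signal of each probe set (vertical log axis, arbitrary units) for common (blue) and tissue-restricted (red) isoforms of complex IV, paired along the horizontal axis; Cox8a is drawn beside both Cox8b and Cox8c, and Cox7b2 has no counterpart measured here. Every common isoform has at least 1 probe set of 2533 or more, 1 of the 3 Cox8a probe sets reads 17.5, and all restricted probe sets lie at or below 52.1.

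Complex V, the ATP synthase, had all 17 measured genes above the upper limit, 16 of them over 1000, and a median of 2715. In the catalytic F1 head, Atp5b, the beta subunit that holds the active sites, gave 3813 on its only probe set. Its partner Atp5a1, the alpha subunit, gave 2715, 2001 and 85.1. The rotating central stalk genes Atp5c1, Atp5d and Atp5e gave 4055 and 75.2, 2929 and 1675, and 1693.

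The c ring turns as protons pass and is encoded by 3 genes for the same mature protein. Atp5g3 gave 4547 on 1 probe set. Atp5g2 gave 2119, 32.0 and 3.71, and Atp5g1 gave 648 and 0.328, the widest span of all genes examined, 10.95 on the log2 scale. The peripheral stalk, which holds the head still, was represented by Atp5pb at 3504 and 1518, Atp5j at 3282, Atp5h at 2354 and 1932, and Atp5o at 2053 and 743. The membrane subunits that help the enzyme to form dimers read from 1665 for Atp5l to 2890.0 for Atp5j2, with Atp5md at 2741, Atp5mpl at 1818 and Atp5k at 1815, 1481 and 1164. The other Atp5j2 probe sets read 2082 and 34.8, the last under the upper limit.

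Complexes differed in the median level of their subunits, leaving the tissue-restricted isoforms and assembly factors aside: 1369 over 34 genes in complex I, 1026 over 4 in complex II, 1645 over 9 in complex III, 3026 over 11 in complex IV and 2715 over 17 in complex V. These medians compare different probe sets and carry no test. What is common to the complexes is the share detected, 33 of 34, 4 of 4, 9 of 9, 11 of 11 and 17 of 17 above the upper limit.

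Where a gene had several probe sets, their readings gave the only comparison within a gene that the array holds. They differ in their probes, so their spread is not a measurement error. Among the 53 such genes the median SD between probe sets was 0.87 on the log2 scale, against 1.45 over the 9010 genes of the array with 2 or more. In 9 of them (17.0%) some but not all probe sets passed the line, against 32.9% of all genes, and these 9 were Atp5g1, Atp5g2, Ndufa10, Ndufb9, Ndufc2, Ndufs4, Sdha, Sdhaf3 and Uqcrq. Such a share also depends on how far levels lie from the line, and whether the SD depends on the level was not tested. The median level was 1458 over the 95 genes and 48.3 over all measured genes, so neither comparison is between genes of like level. Ndufa10 read 896 and 14.1, Ndufb9 2174, 1544 and 2.88, and Ndufs4 561, 142, 30.3 and 13.1. In 33 of the 53 genes every probe set was above the upper limit, and in 20 the highest and the lowest differed by more than 4 on the log2 scale. Neither count was taken over the whole array, so they show no contrast with it. For 8 genes (Atp5d, Atp5e, Cox7c, Ndufa12, Ndufa13, Ndufa2, Ndufaf7 and Uqcrq) all probe sets above the upper limit had names ending in _x_at or _s_at, which can take signal from more than 1 transcript or from near-identical copies elsewhere in the genome.

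**Figure D4:**
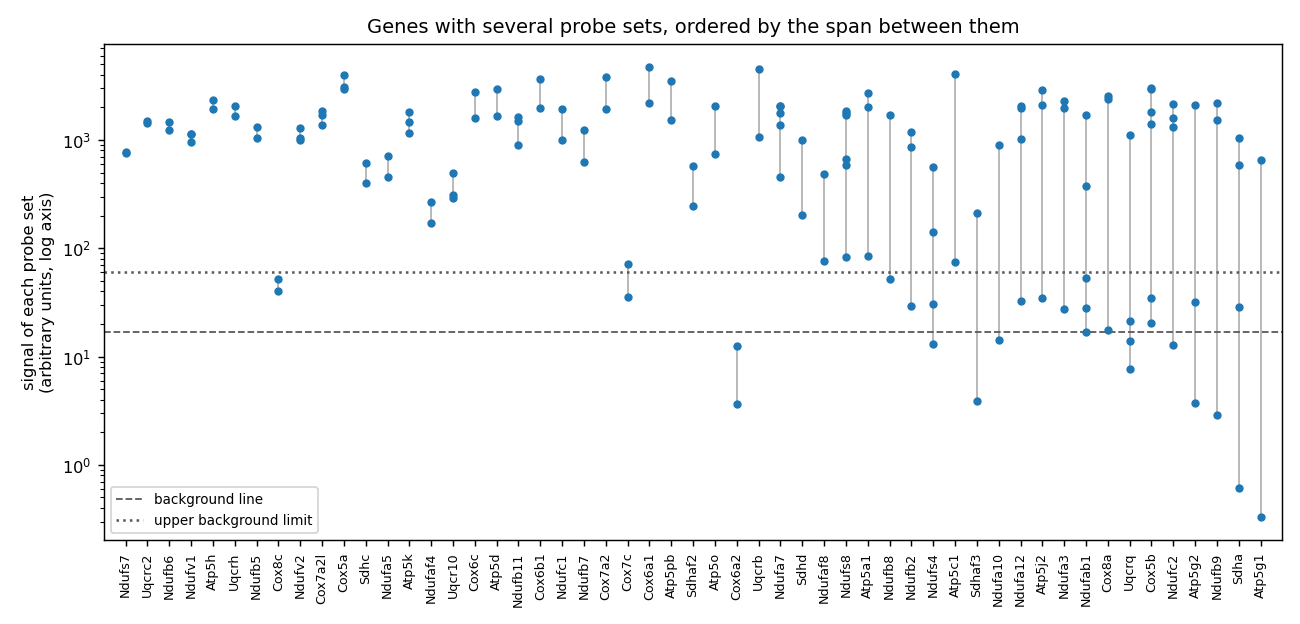
Signal of each probe set (vertical log axis, arbitrary units) for the 53 genes with 2 or more probe sets, ordered from the narrowest to the widest span; dashed and dotted lines mark the background line (16.8) and the upper limit (60.6). The genes on the left have all probe sets above the upper limit except Cox8c, Cox7c and Cox6a2, and the last 20 genes, up to Atp5g1, span more than 4 on the log2 scale.

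Most genes that build and supply the complexes were detected. Of the 33 measured assembly factors outside the symbol rule, 32 passed the line and 28 exceeded the upper limit (97.0% and 84.8%), with a median of 223. The corresponding shares over every measured gene were 63.3% and 47.5%, with a median of 48.3; they are the reference for the lists that follow. The highest were Cox17, a copper chaperone of complex IV, at 2451 and 1.51, and Coa3, a complex IV assembly factor, at 1196 and 342. Not above the upper limit were Foxred1 at 54.7, Ttc19 at 51.1, Tmem126b at 31.2, Coa4 at 18.4 and Lyrm7 at 10.1, of which Lyrm7, a factor for the Rieske protein, was not above the line either. Of 13 electron carriers and entry enzymes, 12 passed both thresholds (92.3%), all except Cyct, and Cycs at 3514 and Gpd2, the glycerol phosphate dehydrogenase of mitochondria, at 1450.0 were the highest. Of 5 carriers and inhibitors of the ATP synthase system, 4 passed both thresholds (80.0%), among them the phosphate carrier gene Slc25a3 at 4834 and the ADP/ATP carrier gene Slc25a4 at 3724. Slc25a4 is the form that prevails in heart and muscle, and its sister gene Slc25a5 read from 360.3 to 3237 on 8 probe sets. The lowest probe sets of Gpd2, Slc25a3 and Slc25a4 read 32.1, 58.0 and 14.3.

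Regulators of mitochondrial gene expression, among them factors and enzymes that act on mitochondrial DNA, passed the background line, with the coactivators Ppargc1a and Ppargc1b lowest. All 14 measured regulators of mitochondrial gene expression passed the line and 12 (85.7%) exceeded the upper limit, against 63.3% and 47.5% of all genes, with a median of 187. The highest were Gabpa, the DNA-binding part of an ETS-family factor, at 805 and 192, and Tfam, which packages mitochondrial DNA and helps to start its transcription, at 583 and 67.8. Nrf1, nuclear respiratory factor 1, gave 183, 138, 54.2 and 39.3. The coactivators Ppargc1a and Ppargc1b were the 2 genes not above the upper limit: Ppargc1a, the inducible coactivator of mitochondrial biogenesis in muscle and brown fat, read 21.1, 9.59, 5.22, 2.56 and 0.392, and Ppargc1b gave 25.4, while their relative Pprc1 gave 404. Of the 13 subunits encoded in mitochondrial DNA, only ND5 of complex I was measured by a one-gene probe set here, at 2521.

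Promoters of the genes were read from a RefSeq table of build GRCm38.p6, as windows from 250 bases before to 50 bases after each annotated start, to see which sequence features the genes share. The table held 83 promoters for 78 of the 95 genes. The motifs searched, on both strands, were GCGCATGC for NRF1, CCGGAAG for ETS factors, AAGATGGC for YY1 and TATAAA for the TATA box; NRF1, GABPA and YY1 are known regulators of respiratory chain genes. A match is only a match of letters, and the motifs were chosen after the signals had been examined. The NRF1 letters were found in 11 of 83 promoters (13.3%), against 5.80% of 9137 promoters of measured genes above the upper limit and 2.71% of all 32851 promoters. The ETS letters were found in 22 (26.5%), against 19.7% and 8.86%, and the YY1 letters in 10 (12.0%), against 4.86% and 2.75%. TATAAA was found in 10 (12.0%), against 6.71% and 13.6%. At least 1 of the NRF1, ETS and YY1 motifs was present in 36 of the 83 promoters (43.4%), against 27.7% and 13.3%. Over the 78 promoters of members above the upper limit, the shares were 14.1% for NRF1, 28.2% for ETS, 12.8% for YY1 and 10.3% for TATAAA. These shares are a description with no test, and the median GC content of the promoters was 59.0%, against 61.3% for measured genes above the upper limit and 52.7% for all promoters.

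By complex, YY1 letters were found in 7 of 40 promoters of complex I and 3 of 18 of complex V, and in 0 of 7, 5 and 13 promoters of complexes II, III and IV. The share was 4.86% in promoters of measured genes above the upper limit, so 0 matches in so few promoters show no contrast between complexes. The ETS letters were found in 6 of 40 promoters of complex I (15.0%), below the 19.7% of measured genes above the upper limit, and in 5 of 7 of complex II, 2 of 5 of complex III, 3 of 13 of complex IV and 6 of 18 of complex V. The complex II matches include those of the assembly factors Sdhaf1, Sdhaf2 and Sdhaf3. The isoforms of complex IV had few entries. ETS letters were found in 3 of 5 promoters of common isoforms and NRF1 letters in 1, whereas 0 of 4 promoters of restricted isoforms held NRF1, ETS or YY1 letters and 2 held TATAAA. Among promoters of all measured genes, 18.8% held NRF1, ETS or YY1 letters and 9.77% held TATAAA, and 4 promoters are too few to show a contrast. The median GC content of the common and restricted isoforms was 56.0% and 50.8%, with 19.0 and 8.50 CpG dinucleotides per window. Cox4i1, Cox4i2, Cox6a2, Cox8c and Ndufa4l2 had no entry.

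**Figure D5:**
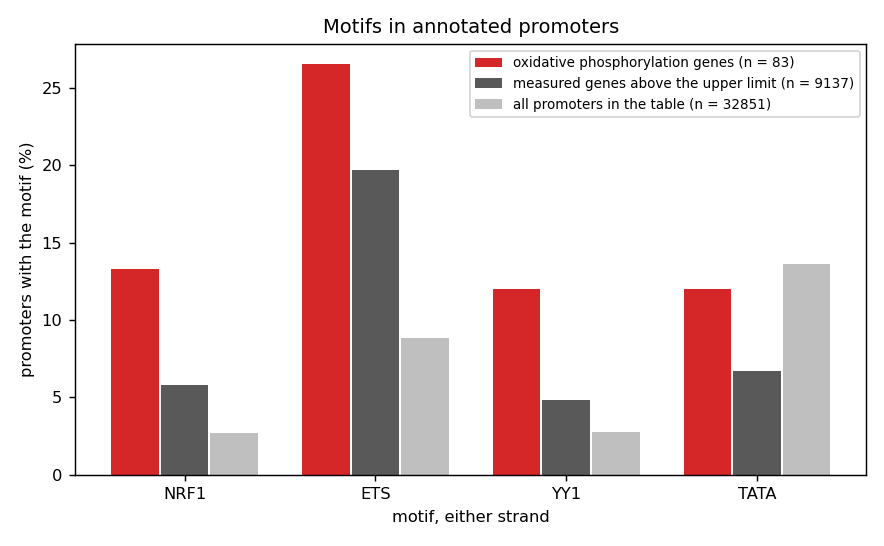
Share of promoters (vertical axis, percent, from 0) that hold each motif on either strand, for the 83 promoters of oxidative phosphorylation genes (red), 9137 promoters of measured genes above the upper limit (dark grey) and all 32851 promoters of the table (light grey). The red bars are highest for ETS (26.5%) and exceed both grey bars for NRF1, ETS and YY1 but not for TATA, where all promoters reach 13.6%.

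Promoters are shown for Cox6a1, Sdhb and Uqcr11, which hold both NRF1 and ETS letters, and for 2 pairs of common and restricted isoforms, Cox6b1 with Cox6b2 and Cox8a with Cox8b. They were chosen after their matches were seen. Each runs 5′ to 3′ along the gene, and capitals mark the matches.

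Cox6a1: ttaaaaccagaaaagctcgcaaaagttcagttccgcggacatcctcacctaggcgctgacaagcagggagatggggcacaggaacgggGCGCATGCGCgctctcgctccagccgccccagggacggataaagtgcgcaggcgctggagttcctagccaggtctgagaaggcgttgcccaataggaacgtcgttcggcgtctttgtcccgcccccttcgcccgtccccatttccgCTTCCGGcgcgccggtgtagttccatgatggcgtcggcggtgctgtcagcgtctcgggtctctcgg
Sdhb: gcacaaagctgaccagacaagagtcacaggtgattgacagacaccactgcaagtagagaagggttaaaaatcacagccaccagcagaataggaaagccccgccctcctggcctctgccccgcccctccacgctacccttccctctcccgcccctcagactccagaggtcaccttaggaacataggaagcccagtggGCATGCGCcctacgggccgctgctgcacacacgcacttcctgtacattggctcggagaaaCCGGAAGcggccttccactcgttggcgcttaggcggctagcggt
Uqcr11: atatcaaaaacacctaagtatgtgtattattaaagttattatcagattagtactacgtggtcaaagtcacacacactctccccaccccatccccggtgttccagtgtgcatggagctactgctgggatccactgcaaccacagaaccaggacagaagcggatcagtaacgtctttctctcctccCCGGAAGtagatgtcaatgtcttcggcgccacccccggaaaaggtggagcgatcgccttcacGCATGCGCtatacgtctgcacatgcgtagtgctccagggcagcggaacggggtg
Cox6b1: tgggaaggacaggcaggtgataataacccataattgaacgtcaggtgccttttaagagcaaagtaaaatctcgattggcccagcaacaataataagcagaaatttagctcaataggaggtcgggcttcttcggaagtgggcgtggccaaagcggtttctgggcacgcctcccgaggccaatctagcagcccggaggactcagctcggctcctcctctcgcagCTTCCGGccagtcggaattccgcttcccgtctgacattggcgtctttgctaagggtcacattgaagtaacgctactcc
Cox6b2: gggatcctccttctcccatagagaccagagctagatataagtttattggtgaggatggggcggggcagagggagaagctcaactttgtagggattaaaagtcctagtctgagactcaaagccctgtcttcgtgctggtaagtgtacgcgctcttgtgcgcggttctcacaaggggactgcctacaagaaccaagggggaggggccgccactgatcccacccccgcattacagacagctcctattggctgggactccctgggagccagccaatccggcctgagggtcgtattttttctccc
Cox8a: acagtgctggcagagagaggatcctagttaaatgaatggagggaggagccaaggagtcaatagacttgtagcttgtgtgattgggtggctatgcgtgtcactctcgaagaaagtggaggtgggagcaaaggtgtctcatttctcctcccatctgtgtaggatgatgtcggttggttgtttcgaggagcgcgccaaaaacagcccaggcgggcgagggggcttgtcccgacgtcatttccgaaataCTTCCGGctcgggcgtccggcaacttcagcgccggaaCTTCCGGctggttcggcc
Cox8b: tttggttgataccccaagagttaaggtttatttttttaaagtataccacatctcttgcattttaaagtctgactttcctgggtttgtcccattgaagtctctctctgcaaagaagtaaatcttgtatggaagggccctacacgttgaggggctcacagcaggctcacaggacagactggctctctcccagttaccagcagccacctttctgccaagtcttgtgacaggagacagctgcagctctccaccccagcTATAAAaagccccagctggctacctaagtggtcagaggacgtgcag

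The Cox6a1 window lies at chr5:115348909-115349208 on the minus strand and holds an NRF1 match on both strands, which overlap and begin 162 and 160 bases before the start, and an ETS match 16 bases before it. The Sdhb window, at chr4:140961021-140961320 on the plus strand, has an NRF1 match 54 bases before the start and an ETS match from base 7 of the transcript. The Uqcr11 window, at chr10:80406772-80407071 on the minus strand, has an ETS match 66 bases and an NRF1 match 4 bases before the start. The common isoforms Cox6b1, at chr7:30626065-30626364 on the minus strand, and Cox8a, at chr19:7217567-7217866 on the minus strand, hold ETS matches, 28 bases before the start in Cox6b1, and 5 bases before it and from base 33 of the transcript in Cox8a. None of the 4 motifs is in the Cox6b2 window, at chr7:4753045-4753344 on the minus strand. The Cox8b window, at chr7:140900397-140900696 on the minus strand, holds TATAAA from base 5 of the annotated transcript and 2 CpG dinucleotides, against 19 in that of Cox8a. Matches did not go with signal in every gene: the windows of Cox7a2, Cox5a and Atp5b, which read 3819, 3987 and 3813, held none of the 4 motifs, nor did that of Cox7a1, the restricted partner of Cox7a2.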

How the data were processed

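The deposited value of each probe set is a linear signal intensity. The submitters' processing notes name Affymetrix Expression Console; which algorithm and background correction the authors chose is not given in the sources used here. Depth does not apply to an array, and the single array limits the precision. Of 45101 probe sets, those naming 1 gene in the platform annotation were used, with symbols updated through the gene ID with RefSeq (GRCm38.p6) for 34741; the update changed 0 member symbols. A gene's level was the log2 signal of its highest probe set, and calls were made against the 95th percentile (line) and the maximum (upper limit) of the background set. Calling was run on simulated data as a check of the code only. Absent genes were drawn from the distribution of the background set and present genes were set far above it, so the expected shares were fixed in advance. The share of absent genes above the line was taken for genes with 1 probe set. It varied between draws, since the line rests on 126 probe sets. A first version with a single draw failed its bound, and the share was then averaged over several draws.

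The members and lists were chosen with earlier results of these data known. Named genes were those not above the upper limit, the 3 highest and 3 lowest of each complex, core subunits, isoform pairs and genes with discordant probe sets; others are named to complete a role. Marker and pathway lists were compared with the same background. Alternatives changed the percentile, the background set, the rule over probe sets, the probe sets admitted and the members. Python 3.11.15, numpy 2.4.6, pandas 2.3.3 and matplotlib 3.10.9 were used.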

Additional observations from a re-analysis of the deposited data

Results flagged for a closer look

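Probe sets that name several genes were not used in the counts above, and 8 of the 10 that include an oxidative phosphorylation symbol gave signal above the background line. The share over all 932 probe sets that name several genes was not computed. Of the one-gene probe sets of the array 60.9% passed the line, and 10 probe sets are too few to show a contrast. The pair shared by Ndufb4, Ndufb4b and Ndufb4c read 1574 and 1189.8, against 12.3 for the Ndufb4 probe set that names it alone. Those of Ndufs5 with its pseudogene, Ndufs6 with Ndufs6b, and Ndufab1 with its pseudogene read 905, 1099 and 1463, and the pair of Ndufa11 with Ndufa11b read 632 and 39.8. The probe set of Ndufb2 with Adck2 read 38.9. The 2 not above the line both name Ndufa13 with Yjefn3 and read 10.5 and 4.77, against 1781 for the Ndufa13 probe set that names it alone. None of these signals can be assigned to 1 of the genes named.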

How the results depend on the processing

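Each of 15 counts and medians was recomputed under 10 alternatives, the last of which, admitting probe sets that name several genes, was chosen after seeing the data. Counts counted as moved beyond 1.5 times and medians beyond the SD between probe sets of a gene (1.45), and 146 of 150 values stayed within. Some of these values could not move. The symbol update changed 0 member symbols, and the medians do not depend on the percentile or the background set. The tolerance for medians was wide: with the lowest probe set, complex II counted as unmoved at a median log2 level of 7.79 in place of 9.20. Genes above the line ranged from 77 to 90, the lowest number when only 83 structural subunits were counted, and genes above the upper limit from 68, when all probe sets of a gene had to pass, to 88. The 6 common isoforms passed the line under every alternative run. With the 99th percentile, a line of 35.5, 1 of 8 restricted isoforms (Cox8c) passed instead of 3. With the lowest probe set of each gene, the median log2 level was 8.73 in place of 10.18 in complex I and 5.15 in place of 10.86 in complex IV. The complex IV medians here are over all 19 of its genes, with the 8 restricted isoforms included. Counting structural subunits only left 4 complex II genes, all above the line, because its 4 assembly factors were removed. With olfactory and vomeronasal genes alone, the upper limit was 19.2, which Cox4i2 and Cox8c exceeded. No paired analysis was possible because there is 1 sample. Signals between 16.8 and 60.6 are limited by the background, and those of single probe sets by the lack of a second reading.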

Other observations

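The endings of probe set names, which state how specifically the probes match, went with detection among the 186 probe sets. All 39 ending in _a_at and all 19 ending in _s_at were above the upper limit, as were 26 of 29 ending in _x_at. Of the 99 with the plain ending _at, 84 passed the line and 65 exceeded the upper limit. The 17 probe sets not above the line were therefore all of the plain or the _x_at kind. Over all one-gene probe sets of the array, whatever their ending, 60.9% passed the line and 41.1% exceeded the upper limit. Shares by ending were not computed for the whole array, so whether the pattern is particular to these genes is not known.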
